A study of Mus musculus with 24 samples.

Results

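The jejunum, the middle of the small intestine, was compared with the corpus of the stomach in germ-free mice, which carry no microbes. The members were the arrays that the labels name germ-free jejunum 1 to 3 and germ-free corpus 1 to 3, 6 of the 24 arrays of the study. The other 18 arrays cover the descending colon and rectum of germ-free mice and all 4 regions of conventional mice, which carry a microbiota, with 3 arrays in each of the 8 groups. Per the labels, whole tissue was dissected and stored in RNAlater, the corpus being all of the stomach other than the antrum and the jejunum the small intestine without its first 4 cm and last 2 cm. No genotype, strain, sex, age or drug treatment is given in the sources used here, and the labels do not say which arrays share a mouse or whether mice were pooled, so p-values measure only the spread between these arrays.

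The corpus holds glands in which parietal cells secrete acid and chief cells secrete enzymes, beneath a surface of mucous pit cells. The mouse stomach also has a forestomach lined by a keratinised squamous epithelium like that of the oesophagus, which is neither corpus glands nor antrum. The jejunum is lined by villi of enterocytes, whose brush border of microvilli digests and takes up sugars, peptides and fat, and by crypts with dividing cells, mucus-secreting goblet cells and Paneth cells, which release antimicrobial proteins.

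The labelled tissues were checked against their markers on each array, and 1 of the 6 libraries went against its label. Atp4a, the catalytic subunit of the gastric proton pump, had signals of 8185 and 14479 on corpus 1 and 2 and of 176 on the library labelled corpus 3. Krt13, a keratin of squamous lining, had 5792 and 3613 on corpus 1 and 2 and 61.9 on corpus 3. Krt4, Krt5 and Krt14 were squamous markers too. Krt4 had 9768 and 9018 on corpus 1 and 2. Krt5 was at 16.5 and 29.5 there and Krt14 at 7.4 and 8, and both were too dim to be tested. On jejunum 1 Krt5 and Krt14 were at 19.5 and 14.7. Hoxb13, which marks the hindgut among homeobox genes, had 28.6 and 48.7 on corpus 1 and 2 and lay between 30.4 and 55.7 on the 3 jejunum arrays and at 1399 on corpus 3. Corpus 3 thus had neither lining's marker at the level of corpus 1 and 2 and carried a hindgut marker. It was closest of all arrays to germ-free descending colon 3, with r = 0.9871 across the 9033 probe sets tested. Over the 3665 probe sets above a signal of 200 on both, the median absolute log2 difference was 0.04838, and 0% differed by over 2-fold. Among all other pairs of arrays, the lowest median difference was 0.1359 and the lowest share over 2-fold was 0.351%. Corpus 3 reached r of 0.7375 and 0.7747 with corpus 1 and 2, while corpus 1 and 2 reached 0.9381 with each other. Results are therefore given as labelled, with 3 corpus arrays, and again without corpus 3, with corpus 1 and 2 only, and where a single value is given it is without corpus 3.

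**Figure D1:**
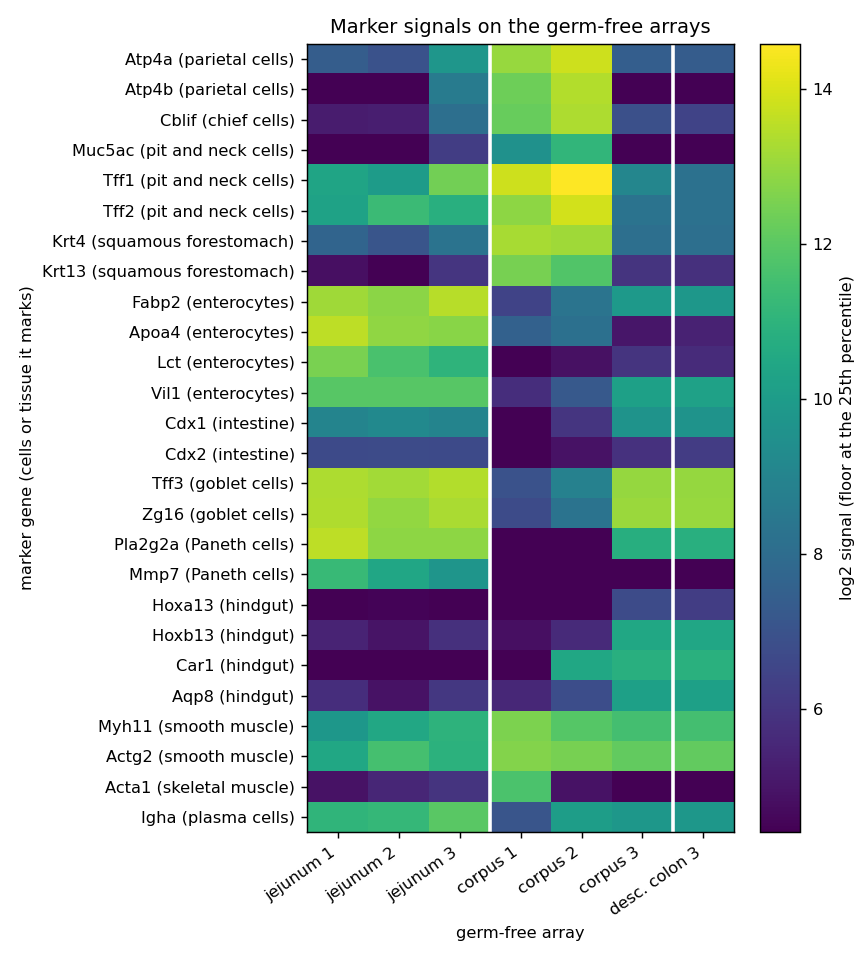
Marker genes (rows, with the cells they mark) on the 6 germ-free arrays compared and on germ-free descending colon 3 (columns), with colour for log2 signal, floored at 21.2 before log2. Corpus 1 and 2 carry the gastric and squamous markers drawn, which leave out Krt5 and Krt14. The library labelled corpus 3 carries intestinal and hindgut markers and has nearly the same colours as descending colon 3.

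**Figure D2:**
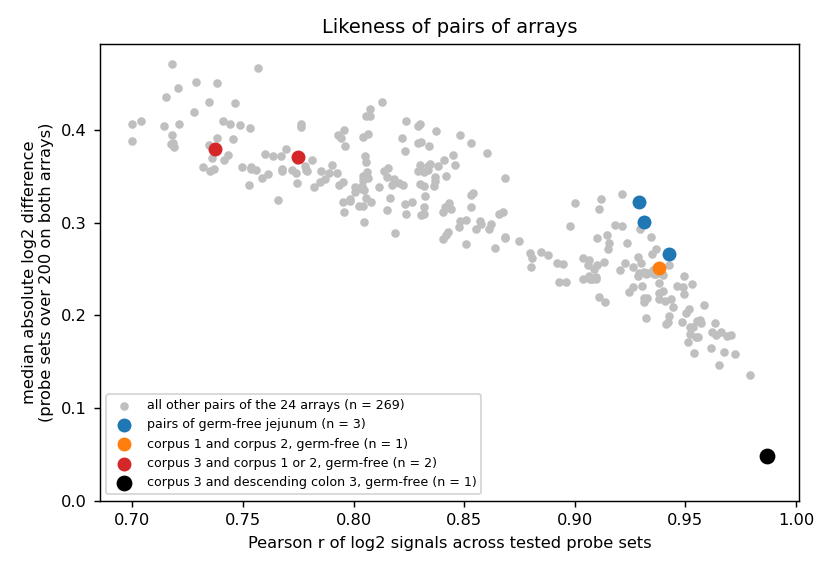
Each point is a pair of the 24 arrays, with Pearson r of log2 signals over the tested probe sets on the x axis and the median absolute log2 difference over probe sets above 200 on both arrays on the y axis. The pair of corpus 3 and descending colon 3 stands alone at 0.9871 and 0.04838, whereas corpus 3 lies at r of 0.7375 and 0.7747 from the other corpus arrays.

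Smaller amounts of foreign markers stood on other arrays. Jejunum 3 had higher signals of several gastric genes than jejunum 1 and 2: Atp4a was at 169, 126 and 874, Cblif, the intrinsic factor, at 35.9, 38.4 and 280.2, and Tff1, a peptide of pit cell mucus, at 1297, 1019.5 and 5494 on jejunum 1, 2 and 3. Tff2, another gastric marker, was instead highest on jejunum 2, at 1243, 2597 and 1793. The 7 pit and neck cell genes summed to 4145, 5476 and 9346 on the jejunum arrays and to 33930 and 60820 on corpus 1 and 2. Krt13 was at 28.1, 10.2 and 62.8 on the same jejunum arrays. Corpus 2 had Car1, a colonic carbonic anhydrase, at 1433 and Tff3, a goblet cell peptide, at 470.3, and corpus 1 had Acta1, the actin of skeletal muscle, at 3289. Ckm, another skeletal muscle marker, was at 48.7 on corpus 1, within the 16.4 to 71.3 of the other compared arrays. The listed skeletal muscle genes summed to 8591 on corpus 1 and 1564 on corpus 2. The part of these markers in the results below was not tested beyond the values without jejunum 3.

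A pair of libraries outside the comparison also went against their labels and entered its estimate of spread. Hoxb13 was at 1626 on conventional jejunum 3, against 43.8 and 109.4 on conventional jejunum 1 and 2. On conventional rectum 1 it was at 41.7 and Lct, lactase, at 394.1, while rectum 2 and 3 had Lct at 29.2 and 26.5. These and germ-free corpus 3 are called the 3 libraries below. The median signal was lowest at 68.6 and highest, on corpus 3, at 102.5 among the 6 compared arrays, and 18.7% to 27.9% of probe sets lay at or below the floor of 21.2. The 3' to 5' signal ratio, a sign of RNA quality, lay between 0.738 and 0.994 on the Gapdh probe sets and between 1.17 and 1.43 on those of actin.

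As labelled, 1967 of 9033 probe sets passed the test at an adjusted p under 0.05 (21.8%; limma with Benjamini-Hochberg adjustment), 774 higher in the jejunum (8.57%) and 1193 lower (13.2%). Without corpus 3, 2379 passed (26.3%), 1013 higher (11.2%) and 1366 lower (15.1%), and 1708 probe sets passed in both. Without jejunum 3 as well, 2494 passed. The balance of directions moved with the scaling. As labelled, 39.3% of calls were higher in the jejunum at the deposited scale, 49.2% after quantile normalization (860 higher, 889 lower) and 65.8% with array medians equalised (1175 higher, 611 lower), and the median difference over all probe sets moved from -0.158 to -0.0394 and 0.101. Without corpus 3 these shares were 42.6%, 47.9% and 54.5%, with 1192 higher and 994 lower in the last, and medians of -0.0683, 0.00626 and 0.0919. Signals at or below 21.2 were set to it, so a fold against a group with any array there is given as "at least". Where leaving out 1 more array without corpus 3 ended a named gene's call or moved its fold by over 1.5 times, this is said at the end of the paragraph. Those fits kept conventional jejunum 3 and conventional rectum 1 in the estimate of spread. In 21.2% of probe sets all jejunum arrays lay above corpus 1 and 2, and in 27.2% below both. In whole tissue, fewer cells of a type and less RNA per cell cannot be told apart, here and in all that follows. Counts of genes in lists below use the tested probe set of highest mean signal for each gene. On that basis, 11.9% of the 6650 genes were higher in the jejunum and 16.4% lower without corpus 3, with a median difference of -0.0989, and 9.2% and 14.3% as labelled, with a median of -0.157. Every list count below is to be read beside these shares. As labelled, many counts fell with only the compared arrays in the fit. Lower squamous genes went from 26 to 4, smooth muscle from 15 to 3 and matrix from 33 to 13. Higher brush border genes went from 15 to 7 and transporters from 14 to 9. Cell cycle genes went from 13 to 1, MHC class I from 7 to 1 and goblet cell from 5 to 0. Without corpus 3, squamous, brush border and smooth muscle counts stayed at 25, 14 and 12 or more in every alternative.

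Genes of the squamous lining were 9 of the 15 with the largest negative difference among called genes whose arrays did not overlap. Of 31 measured genes of squamous epithelium, of 48 listed, 27 were lower in the jejunum and 0 were higher without corpus 3, with a median log2 difference of -3.547. As labelled, 26 were lower. The share of lower genes among all tested was 16.4%. Signals of the 31 genes summed to 109100 and 90670 on corpus 1 and 2, to 4523 to 6185 on the jejunum arrays and to 8464 on corpus 3. Krt13 was also at 3831 to 5719 on the 3 conventional corpus arrays.

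Krtdap, a secreted protein of differentiating keratinocytes, had signals of 12.9, 43 and 32.4 on jejunum 1, 2 and 3, 10182 and 10823 on corpus 1 and 2 and 36.3 on corpus 3. Its log2 difference, jejunum minus corpus as throughout, was -8.41 ± 0.82 (the error after ± being the SE, adjusted p = 2.82e-07, at least 340-fold), and -5.68 ± 1.42 as labelled (adjusted p = 0.00798). Lgals7, a galectin of stratified epithelium, was at 12.4, 7.2 and 11 in the jejunum, at or below the floor on every array, and at 7955 and 6496 on corpus 1 and 2, at least 339-fold higher (adjusted p = 1.7e-07). Crct1, a gene of the epidermal differentiation complex, stood likewise at 8251 and 5873 against 5.0, 3.1 and 4.7, at least 328-fold. Corpus 1 and 2 lay far above all jejunum arrays in each of these 3 genes, but the rule that named them required no overlap. In each of them corpus 3 lay with the jejunum.

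The keratins of the suprabasal layers followed the same order. Krt10 was at 6843 and 11089.9 on corpus 1 and 2 against 50.9, 44.3 and 52.6 in the jejunum (177-fold, adjusted p = 7.15e-06). Krt1, its partner, gave at least 157-fold and Krt4, a keratin of oesophageal lining, 45.8-fold. Krt13 fell at least 137-fold by its brightest probe set and by 7.37 on the log2 scale with another, while a 3rd probe set gave -0.03 (adjusted p = 0.977), so its probe sets disagree. Krt6a and Krt6b, keratins of activated epithelium, were lower with log2 differences of -2.09 ± 0.35 and -1.20 ± 0.29.

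Proteins of the cornified envelope, the crosslinked shell of a keratinocyte, were lower in the jejunum as well. Sprr3, an envelope precursor, was at 9577 and 8638 on corpus 1 and 2 and at 47.9, 47.7 and 69.9 in the jejunum (-7.39 ± 0.69, adjusted p = 1.67e-07). Sprr1a differed by -5.70 ± 0.37, Flg, the filament-aggregating filaggrin, by -6.18 ± 0.44, and Ppl, periplakin of desmosomes, by -3.70 ± 0.31. Ivl, involucrin, was low in the corpus too, at 72.4 and 56, and at the floor on all jejunum arrays, at least 3-fold lower. Sprr1b kept signals of 2409.7, 1260.2 and 1510.4 in the jejunum against 4025 and 2959 on corpus 1 and 2, a difference of -1.05 ± 0.26 (adjusted p = 0.0057). Probe sets of the Sprr2 family can bind RNA of several members, so the -1.54 of Sprr2k is uncertain as to the gene. Sprr1b did not pass without corpus 1 (adjusted p = 0.0982), nor did Sprr2k without corpus 2 (adjusted p = 0.0616).

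Among the same 15, but outside the list, stood Mt4, a metallothionein of squamous epithelium, at least 198-fold lower in the jejunum, and Rptn, repetin, at least 119-fold. Asprv1, a protease that cleaves filaggrin, had 9055 and 6780.5 on corpus 1 and 2 and 125, 48 and 102 in the jejunum. Scgb1a1, a secretoglobin of airway and other mucosae that the rule named as labelled, had 1455 and 965 against 29.7, 13.8 and 19.4. Trp63, the transcription factor of squamous basal cells, was at 368 and 256 against 28.8, 36.5 and 44.6 (-3.09 ± 0.39, adjusted p = 8.58e-06). Ehf, Tgm3, S100a14 and Krt17 did not pass the test, though 2 dimmer probe sets of Krt17 were lower (-2.91 and -4.05). Tgm3, a transglutaminase, was at 239 and 107 on corpus 1 and 2 and at 1024 on corpus 3, its highest value of the 6 arrays.

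A pair of promoters from this list is shown because their genes moved together and carry the same letters near the start. They were chosen after their values were seen. The sequences are the 250 bases before the RefSeq start in GRCm38.p6: Krtdap lies at chr7:30787655-30787904 on the plus strand and Sprr1a at chr3:92485882-92486131 on the minus strand. Capitals mark TGANTCA, the motif of the AP-1 factors, and TATAAA, the TATA box, searched on both strands, and no marked matches overlap.
Krtdap: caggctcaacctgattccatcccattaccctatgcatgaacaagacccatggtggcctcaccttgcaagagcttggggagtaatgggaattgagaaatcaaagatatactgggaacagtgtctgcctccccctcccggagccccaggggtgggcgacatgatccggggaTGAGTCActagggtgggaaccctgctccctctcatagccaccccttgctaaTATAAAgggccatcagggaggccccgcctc
Sprr1a: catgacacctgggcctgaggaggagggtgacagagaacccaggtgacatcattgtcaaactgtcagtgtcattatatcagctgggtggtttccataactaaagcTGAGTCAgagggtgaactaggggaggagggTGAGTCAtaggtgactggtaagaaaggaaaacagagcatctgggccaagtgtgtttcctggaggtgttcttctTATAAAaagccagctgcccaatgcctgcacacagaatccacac
In Krtdap the AP-1 motif begins 81 bases and the TATA motif 30 bases before the start. Sprr1a has AP-1 motifs at 146 and 116 bases and a TATA motif at 43 bases. TGANTCA stood in 8 of the 15 lower squamous genes with a promoter entry (Sprr1a, Flg, Krt13, Krtdap, Serpinb5, Ivl, Sprr1b and Sprr2k, 53.3%), in 6.48% of the 5325 tested genes with an entry and in 6.75% of all 32851 promoters. Among genes called lower it stood in 8.85%, and among those called higher in 7.19%. In the higher brush border genes described below it stood in 3 of 13 (23.1%), in the higher fat absorption genes in 0 of 11 and in the higher transporters in 1 of 14. TATAAA stood in 8 of the same 15, in 10.2% of tested genes, in 4 of 11 higher fat absorption genes (36.4%), in 3 of 13 higher brush border genes and in 2 of 14 higher transporters. These matches are a description and not sites of binding.

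Acid, enzyme and mucus genes of the corpus were lower in 12 of 26 measured without corpus 3. Of all genes 16.4% were lower and 11.9% higher. Of 12 measured parietal cell genes, 4 were lower and 2 higher without corpus 3, and 3 were lower and 1 higher as labelled. Among 7 chief cell genes, 4 were lower and 1 higher (2 and 0 as labelled, and 2 lower without corpus 2). Of the 7 pit and neck cell genes 4 were lower and 0 higher in both, with a median of -3.287.

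Atp4a had 169, 126 and 874 on the jejunum arrays against 8185 and 14479 on corpus 1 and 2, a difference of -5.36 ± 0.78 (adjusted p = 4.21e-05, 41.1-fold). As labelled it was -3.38 ± 1.12 (adjusted p = 0.0365). Atp4b, the other pump subunit, was at 10.1, 5.6 and 401 in the jejunum and 5232 and 10947 on corpus 1 and 2 (-7.07 ± 1.12, adjusted p = 0.000111). As labelled it gave -4.24 and did not pass (adjusted p = 0.0641), with corpus 3 at 9.2. Jejunum 3 was the highest jejunum array for both subunits, and neither overlapped corpus 1 or 2. The Atp4a difference was 74.8-fold without jejunum 3. The Atp4b difference was at least 82.1-fold without jejunum 1, at least 82.1-fold without jejunum 2 and at least 357-fold without jejunum 3.

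Kcnj15, a potassium channel of parietal cells, was lower, with a difference of -2.96 ± 0.53, as was Vegfb, a growth factor, with -1.27 ± 0.29. Tcn2 and Ckmt1 went the other way, a cobalamin carrier and a mitochondrial creatine kinase that other cells also express: Tcn2 was at 1538, 1496 and 895 in the jejunum and 548 and 527 on corpus 1 and 2 (1.24 ± 0.26, adjusted p = 0.00169). Ckmt1 gave 1.09 (adjusted p = 0.0239) and did not pass without jejunum 1, corpus 1 or corpus 2 (adjusted p = 0.0603 to 0.167). Kcnq1, Hrh2, Cckbr, Slc4a2, Ckb and Aqp4 did not pass. Car2, a carbonic anhydrase of parietal cells, erythrocytes and colon, was at 118, 109 and 299 in the jejunum and 4003 and 7653 on corpus 1 and 2 with 3778 on corpus 3 (-5.14 ± 1.46, adjusted p = 0.0128). Vegfb did not pass without corpus 2 (adjusted p = 0.0597), nor did Car2 without corpus 1 or corpus 2 (adjusted p = 0.0509 to 0.101). The Kcnj15 difference was at least 20.3-fold without corpus 1 and at least 2.99-fold without corpus 2.

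Cblif, the intrinsic factor that binds cobalamin, was at 4817 and 10234 on corpus 1 and 2 against 35.9, 38.4 and 280.2 in the jejunum (-6.59 ± 0.91, adjusted p = 2.3e-05, 96.4-fold). Chia1, the acidic chitinase, was lower by 47.5-fold (adjusted p = 0.00305), but not as labelled (adjusted p = 0.212). Clps, the cofactor of pancreatic lipase, was at 11215 and 20761 and 1648, 1075 and 2582, 9.19-fold lower, and Pla2g1b, a secreted phospholipase of pancreas and stomach, 21.2-fold lower (adjusted p = 0.000321). Dmbt1, a mucosal scavenger receptor, was higher in the jejunum by 1.27 ± 0.30. For Ctse, the aspartic protease cathepsin E, 1 probe set gave -5.30 (adjusted p = 0.00543, and 0.0683 without corpus 2) and the brightest gave 0.26 (adjusted p = 0.599), so its direction rests on the probe set. Clps did not pass without corpus 2 (adjusted p = 0.101), nor did Dmbt1 without corpus 1 (adjusted p = 0.135). The Cblif difference was 189-fold without jejunum 3. The Chia1 difference was 23.2-fold without jejunum 2, 132-fold without jejunum 3, 73-fold without corpus 1 and 30.9-fold without corpus 2.

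In the mucous cells, Muc5ac, the gel-forming mucin of pit cells, was at 761 and 2192 on corpus 1 and 2 and at 4.8, 5.9 and 77.2 in the jejunum (at least 39.6-fold, adjusted p = 7.15e-06). Anxa10, an annexin of gastric epithelium, gave at least 49.4-fold and Psca, a surface antigen of pit cells, 58.3-fold. Tff1 was at 1297, 1019.5 and 5494 in the jejunum against 14552 and 24572, 9.76-fold (adjusted p = 0.00326), and did not pass as labelled (adjusted p = 0.294). Tff2, the neck cell peptide, was at 1243, 2597 and 1793 on the germ-free jejunum arrays, and at 2.3, 48.9 and 1253 on the conventional ones, the last a library whose markers oppose its label. Its germ-free difference did not pass (-2.56 ± 1.32, adjusted p = 0.167), nor did the difference between microbial states without the 3 libraries (5.28 ± 1.4, adjusted p = 0.356). Muc1, a membrane mucin, was lower in the jejunum, -4.51 ± 0.75 (adjusted p = 0.000176). The Muc5ac difference was at least 60.9-fold without jejunum 3, at least 67.2-fold without corpus 1 and at least 23.3-fold without corpus 2. The Anxa10 difference was at least 82.8-fold without jejunum 3, at least 84.2-fold without corpus 1 and at least 29-fold without corpus 2. The Psca difference was 35.9-fold without jejunum 2 and 119-fold without jejunum 3. The Tff1 difference was 16.4-fold without jejunum 3. The Muc1 difference was 40-fold without jejunum 3.

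Hormone and granule genes went in both directions. Of 17 measured, 5 were lower and 4 higher in the jejunum without corpus 3, beside 16.4% and 11.9% of all genes. As labelled these counts were 4 and 1. The 4 higher without corpus 3 became 2 in several settings, among them leaving out corpus 1 or corpus 2. Ghrl, ghrelin, the hunger hormone of gastric glands, was at 2814 and 4548 on corpus 1 and 2 and at 9.3, 8.0 and 13.8 in the jejunum, where it was at the floor, at least 169-fold lower (adjusted p = 4.57e-09). Hdc, which makes histamine in enterochromaffin-like and mast cells, was at 106 and 144 and 3.6, 6.7 and 4.6, at least 5.84-fold lower. Sst, somatostatin, was lower, at -1.97 ± 0.49 (adjusted p = 0.0058), with 582, 422 and 334 in the jejunum and 1360.5 and 2122 on corpus 1 and 2. Cpe and Chga, a prohormone-cutting enzyme and a granule protein, were lower by 5.45-fold and 2.6-fold. Sst did not pass without corpus 2 (adjusted p = 0.0817).

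Gip, the incretin of upper intestinal K cells, was at 1115, 712 and 538 in the jejunum and at or below the floor on corpus 1 and 2 (13.3 and 11), at least 35.5-fold higher (adjusted p = 0.00159). Cck, cholecystokinin, was at 322, 246 and 107 against 15.7 and 12.6, at least 9.61-fold higher (adjusted p = 0.0309, and 0.0583 as labelled). Gcg, the glucagon-like peptide precursor, was higher by 1.33 ± 0.47 (adjusted p = 0.0445). Chgb gave 1.84 ± 0.39, opposite in sign to Chga. Cck did not pass without jejunum 1, jejunum 2, corpus 1 or corpus 2 (adjusted p = 0.0751 to 0.13), nor did Gcg with any 1 of the 5 arrays left out (adjusted p = 0.055 to 0.181).

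Most transcription factors that passed were higher in the organ they are listed for. Of 7 measured gastric and forestomach factors, 6 were lower and 1 higher without corpus 3, and 4 and 0 as labelled. Sox2, which keeps foregut identity, was at 840.4 and 671 on corpus 1 and 2 and 13.4, 25 and 31.7 in the jejunum (-4.87 ± 0.39, adjusted p = 2.2e-08). Nr2f1, an orphan nuclear receptor, was at 228 and 191 against 8.6, 3.7 and 10.2, at least 9.85-fold lower. Barx1, which patterns stomach mesenchyme, was at 90.5 and 111 against 37.4, 46.2 and 19.9 (adjusted p = 0.018). Spdef, a factor of goblet and other mucous cells, was the higher one (1.66 ± 0.60, adjusted p = 0.0462). Barx1 did not pass without jejunum 3, corpus 1 or corpus 2 (adjusted p = 0.0628 to 0.121), nor did Spdef without jejunum 1, jejunum 2 or corpus 1 (adjusted p = 0.0851 to 0.713). The Spdef difference was 1.33-fold without corpus 1 and at least 7.52-fold without corpus 2.

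Of 23 measured intestinal factors, 12 were higher and 4 lower without corpus 3, against 7 and 4 as labelled. Vdr, the vitamin D receptor, was at 745, 548 and 611 in the jejunum and at 13.8 or less on corpus 1 and 2, at least 29.7-fold higher (adjusted p = 8.46e-11). Cdx1, a caudal homeobox factor of intestine, was at 508, 611 and 517 against 8.5 and 62.2 (3.90 ± 0.35, adjusted p = 9.31e-08). Cdx2 was dimmer, 103, 106 and 103 against 2.4 and 29.7 (2.05 ± 0.66, adjusted p = 0.0276). On both Cdx genes corpus 3, at 804 and 57.8, lay above corpus 1 and 2. Cdx2 did not pass without jejunum 1, jejunum 2, corpus 1 or corpus 2 (adjusted p = 0.0596 to 0.168). The Cdx1 difference was 8.73-fold without corpus 1 and at least 25.6-fold without corpus 2.

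Hnf4a and Hnf4g, nuclear receptors of enterocyte genes, were higher by at least 7.55-fold and at least 16.6-fold. Gata5 was at 215, 289.8 and 232 against 8.3 and 36.7 (3.13 ± 0.83), whereas Gata4 and Gata6 did not pass, at -0.50 ± 0.36 and 0.33 ± 0.26. Nr1h3, an oxysterol receptor, Nr1i2, a xenobiotic receptor, and Nr1h4, the bile acid receptor, were higher by 10.2-fold, at least 4.21-fold and 3.06-fold. The 4 lower ones were Foxa1, Foxa2, Prdm1 and Klf4, with -1.82, -2.62, -1.87 and -0.60 on the log2 scale. That count became 2 without jejunum 2 or jejunum 3 or corpus 1, and 1 without corpus 2. Gata5 did not pass without corpus 1 (adjusted p = 0.0941), nor did Foxa1 without corpus 2 (adjusted p = 0.0941), nor did Foxa2 without jejunum 2, jejunum 3, corpus 1 or corpus 2 (adjusted p = 0.0574 to 0.23), nor did Prdm1 without corpus 1 (adjusted p = 0.0653), nor did Klf4 without jejunum 1, jejunum 2, jejunum 3 or corpus 2 (adjusted p = 0.0594 to 0.266). The Hnf4a difference was 3.77-fold without corpus 1 and at least 15.1-fold without corpus 2. The Foxa1 difference was 5.45-fold without corpus 1 and 2.28-fold without corpus 2.

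Few Hox genes, which mark position along the body axis, passed. Of 23 measured, 3 were lower and 0 higher without corpus 3 and 1 was lower as labelled, beside 16.4% and 14.3% of all genes, and 1 without corpus 1. The 3 were Hoxc4, Hoxc5 and Hoxc8, of 1 cluster. Hoxc5 was at 59.2, 8.1 and 54.9 in the jejunum and 219 and 125 on corpus 1 and 2 (-2.01 ± 0.50, adjusted p = 0.00508). Hoxa13 and Hoxa10 of the hindgut lay at 22.8 or less on the other 5 arrays and at 106 and 85 on corpus 3. Hoxc5 did not pass without corpus 1 (adjusted p = 0.09).

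**Figure D3:**
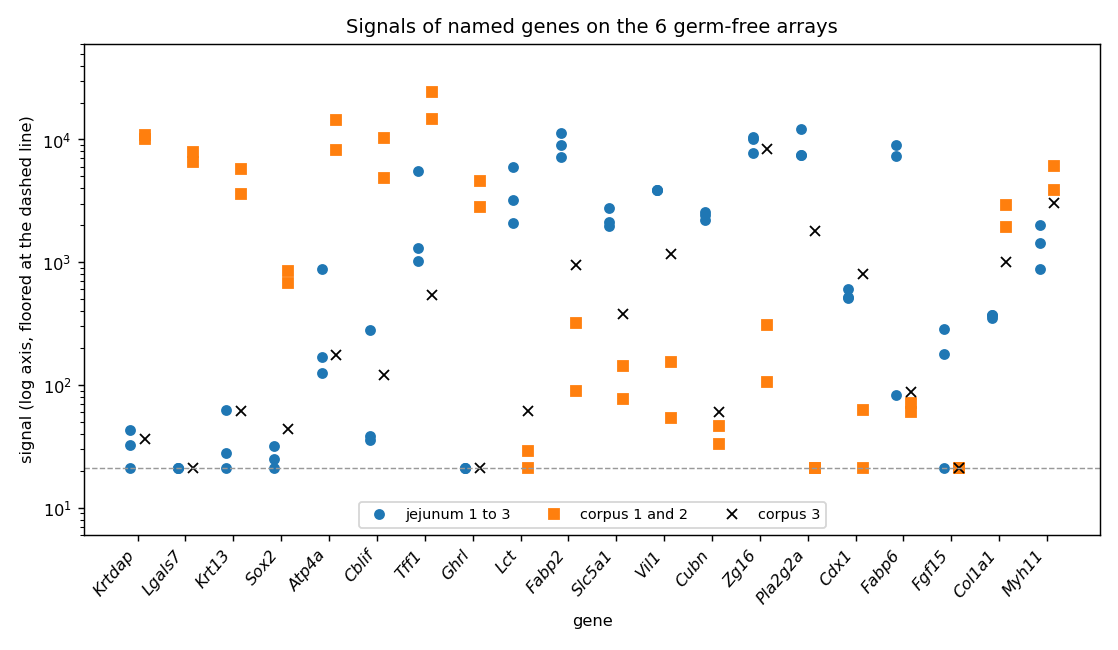
Signals (log axis, floored at the dashed line) of 20 named genes on jejunum 1 to 3 (circles), corpus 1 and 2 (squares) and the library labelled corpus 3 (crosses). For Krtdap to Ghrl both squares lie above all circles and the cross lies near or below the circles, while for Lct to Pla2g2a all circles lie above both squares; for Fabp6 and Fgf15 jejunum 1 lies with the corpus.

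On the jejunal side the brush border led. Of 18 measured genes of its enzymes and structure, of 38 listed, 15 were higher and 0 lower both as labelled and without corpus 3, with a median log2 difference of 4.493 without it. Lct, lactase, was at 5929, 3221 and 2093 on jejunum 1, 2 and 3, 18.9 and 29 on corpus 1 and 2 and 61.7 on corpus 3. Its difference was 7.11 ± 1.20 (at least 138-fold, adjusted p = 0.000216), and 6.67 ± 1.08 as labelled (adjusted p = 0.000789). The jejunum arrays lay above all 3 corpus arrays, as the rule that named Lct required, and jejunum 1 was the highest.

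Other digestive enzymes followed. Mep1b, a subunit of the protease meprin, was at 3093, 2949.6 and 2778 against 2.9 and 50.6 (at least 89.7-fold, adjusted p = 9.48e-06), and its partner Mep1a, dimmer at 88.2, 79.7 and 150.4, gave at least 4.81-fold. Ace, the angiotensin-converting peptidase, was at 3094, 878 and 753 against 45.7 and 62.5 (4.57 ± 0.87), and Mme, neprilysin, was at least 17.6-fold higher. Dpp4, a dipeptidyl peptidase, was higher by 4.65-fold. Anpep, aminopeptidase N, was at 6913, 4962 and 5252 against 319 and 554 without any overlap, but its difference of 3.75 ± 1.47 did not pass without corpus 3 (adjusted p = 0.0667). It passed as labelled (adjusted p = 0.0236) and without the 3 libraries (adjusted p = 1.21e-05), 1 of which is the library labelled conventional jejunum 3, which shares in the estimate of spread. Enpep, aminopeptidase A, did not pass by its brightest probe set and was higher by 5.27 with another. Tmprss15, enteropeptidase, did not pass, with signals of 5.6, 16 and 29.6 in the jejunum. The Mep1b difference was 58-fold without corpus 1 and at least 139-fold without corpus 2. The Ace difference was 15.2-fold without jejunum 1.

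Among structural genes, Vil1, villin of the microvillus core, was at 3897, 3879.7 and 3904 against 54.1 and 153 (5.42 ± 0.58, adjusted p = 9.16e-07). Cdhr5, a cadherin linking microvilli, was higher by 37.4-fold, Muc3 and Muc13, membrane mucins, by at least 78.3-fold and 26.2-fold, and Pdzk1, a scaffold for transporters, by at least 65.7-fold. Cubn, the receptor that takes up intrinsic factor with cobalamin in the ileum and albumin in kidney, was at 2559, 2416 and 2188 against 33.2 and 46.4 (60.7-fold, adjusted p = 0.00347), though a dim 2nd probe set gave -0.11. Krt20, a keratin of differentiated intestinal cells, gave 21.3-fold. Ezr, ezrin, which is also expressed in gastric glands, gave 1.79-fold (2191, 2184 and 1938 against 915 and 1505). Ezr did not pass without corpus 1 (adjusted p = 0.211). The Vil1 difference was 25.5-fold without corpus 1 and 72-fold without corpus 2. The Muc3 difference was 27.9-fold without corpus 1 and at least 220-fold without corpus 2. The Muc13 difference was 16.4-fold without corpus 1 and 41.7-fold without corpus 2. The Krt20 difference was 13.6-fold without corpus 1 and 33.6-fold without corpus 2.

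Fat absorption genes were higher in part. Of 23 measured, 13 were higher and 1 lower in both comparisons, with a median of 2.5 without corpus 3, and 8 were higher without corpus 1 or without corpus 2. Fabp2, the intestinal fatty acid binding protein, was at 9089, 7263 and 11375 in the jejunum and 88.5 and 318 on corpus 1 and 2 (5.76 ± 1.41, adjusted p = 0.00475). Fabp1, the liver form, was at 2383, 458 and 499.8 against 78.7 and 8.8 (4.32 ± 0.75). Mttp, which loads lipid on apolipoprotein B, was at 1087, 712 and 616 and at the floor on all 3 corpus arrays, at least 36.9-fold higher (adjusted p = 0.00186). Fabp2 did not pass without corpus 1 (adjusted p = 0.0771). The Fabp2 difference was 28.6-fold without corpus 1 and 103-fold without corpus 2. The Fabp1 difference was at least 11.7-fold without jejunum 1, at least 38.5-fold without corpus 1 and 10.4-fold without corpus 2.

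Apob, that apolipoprotein, was higher by 32.7-fold (adjusted p = 0.0116), and Dgat1 and Mogat2, enzymes that rebuild triglyceride, by 18.9- and 11.8-fold. Apoa4 was at 12194, 7680.2 and 6917 against 191 and 286 (5.21 ± 1.79, adjusted p = 0.0365) and Apoc2, the cofactor of lipoprotein lipase, gave 6.29 ± 0.69. Apoa1, the main apolipoprotein of high-density lipoprotein, was at 12426, 9350.4 and 16533 in the jejunum, at 1729.5 and 3327 on corpus 1 and 2 and at 23.2 on corpus 3. All jejunum arrays lay above corpus 1 and 2, but Apoa1 did not pass (2.37 ± 2.26, adjusted p = 0.488). Its spread included conventional jejunum 3, at 7.7 against 8880 and 16567 on conventional jejunum 1 and 2. It also included conventional rectum 1, at 8048 against 26.6 and 65.8 on conventional rectum 2 and 3. Apoe was the lower one, at 242, 399 and 340.5 against 1679 and 1095 (-2.08 ± 0.47). Rbp2, a retinol binding protein, was higher by 6.16-fold. Apob did not pass without corpus 1 (adjusted p = 0.0993), nor did Apoa4 with any 1 of the 5 arrays left out (adjusted p = 0.0562 to 0.166), nor did Apoe without corpus 1 (adjusted p = 0.0501), nor did Rbp2 without corpus 1 or corpus 2 (adjusted p = 0.0618 to 0.0776). For Apoa4 the spread in these fits included conventional jejunum 3, at 13.8 against 5630 and 5207 on conventional jejunum 1 and 2. It also included conventional rectum 1, at 2766 against 19.9 and 43.8 on conventional rectum 2 and 3. Without the 3 libraries Apoa4 passed. The Apoc2 difference was 46-fold without corpus 1 and 133-fold without corpus 2.

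Nutrient transporters were higher in 16 of 24 measured genes and lower in 0 without corpus 3, and in 14 and 0 as labelled. Slc5a1, the sodium-glucose cotransporter, was at 2761, 2129 and 1979.5 against 142 and 76.4 (4.44 ± 0.72, adjusted p = 0.00013). Slc2a2, the basolateral glucose carrier, was at least 7.57-fold higher, while Slc2a5, the fructose carrier, did not pass (1.24 ± 0.61, adjusted p = 0.149). Slc34a2, a phosphate transporter, was at 1704, 3047 and 2402 against 16.8 and 15.5, at least 109-fold (adjusted p = 3.4e-06). Slc7a7 and Slc7a9, light chains of amino acid exchangers, were higher by at least 77.4-fold and by 66.2-fold, and Slc3a1, the heavy chain of Slc7a9, by at least 16.9-fold. Slc39a4, the zinc importer, was higher by 7.03-fold, though a 2nd probe set gave 0.11, and Cftr, the chloride channel, by 7.38-fold, the latter not passing as labelled (adjusted p = 0.0518). Heph, which oxidises iron for export, was at 554, 594 and 571 against 15.8 and 39.1 (4.31 ± 0.41), and Slc11a2, the iron importer, did not pass (0.45 ± 0.23). Slc3a1 did not pass without corpus 1 (adjusted p = 0.163). The Slc3a1 difference was 8.62-fold without corpus 1 and at least 33.3-fold without corpus 2.

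The promoters of 5 of these genes are shown because their genes were among the higher ones and their windows hold letters of intestinal factors, which were the same in 4 of them and differed in Lct. They were also chosen after values were seen. They are again the 250 bases before the RefSeq start in GRCm38.p6: Lct at chr1:128328319-128328568 on the minus strand, Fabp2 at chr3:122894822-122895071, Rbp2 at chr9:98490287-98490536, Apoa4 at chr9:46240594-46240843 and Slc5a11 at chr7:123214616-123214865, these 4 on the plus strand. Capitals mark CAAAGNNCA, a core motif of Hnf4, TTTATG, a motif of Cdx factors, and TATAAA, each on either strand. TTTATA, the other strand of TATAAA, differs from TTTATG in its last letter, and no marked matches overlap.
Lct: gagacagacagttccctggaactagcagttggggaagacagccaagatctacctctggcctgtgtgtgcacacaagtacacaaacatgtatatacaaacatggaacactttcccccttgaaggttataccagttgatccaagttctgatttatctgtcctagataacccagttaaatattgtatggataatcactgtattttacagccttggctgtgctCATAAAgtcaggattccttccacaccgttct
Fabp2: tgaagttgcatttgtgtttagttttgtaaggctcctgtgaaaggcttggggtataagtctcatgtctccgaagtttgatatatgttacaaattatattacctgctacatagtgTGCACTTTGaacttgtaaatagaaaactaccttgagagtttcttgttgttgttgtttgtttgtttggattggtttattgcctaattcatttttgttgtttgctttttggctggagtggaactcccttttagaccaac
Rbp2: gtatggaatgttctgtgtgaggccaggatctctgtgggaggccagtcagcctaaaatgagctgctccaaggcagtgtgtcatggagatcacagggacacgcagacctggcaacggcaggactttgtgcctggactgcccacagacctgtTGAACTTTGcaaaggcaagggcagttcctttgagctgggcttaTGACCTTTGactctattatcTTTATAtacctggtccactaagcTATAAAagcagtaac
Apoa4: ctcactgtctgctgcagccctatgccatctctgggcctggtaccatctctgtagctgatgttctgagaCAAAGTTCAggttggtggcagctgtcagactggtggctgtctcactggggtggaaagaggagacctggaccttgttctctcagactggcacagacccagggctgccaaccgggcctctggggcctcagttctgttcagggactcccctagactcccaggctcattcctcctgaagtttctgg
Slc5a11: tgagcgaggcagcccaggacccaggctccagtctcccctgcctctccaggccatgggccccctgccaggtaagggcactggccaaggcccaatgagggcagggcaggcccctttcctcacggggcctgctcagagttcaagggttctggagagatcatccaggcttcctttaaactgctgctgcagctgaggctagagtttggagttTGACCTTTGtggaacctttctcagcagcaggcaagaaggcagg
The Hnf4 letters begin 137 bases before the start in Fabp2, 58 and also farther upstream in Rbp2, 182 in Apoa4 and 43 in Slc5a11, and Lct has the Cdx letters at 31. Rbp2 has TATA letters at 38 and 15. CAAAGNNCA stood in 4 of 11 higher fat absorption genes with an entry (Fabp2, Apob, Rbp2 and Apoa4, 36.4%), in 5 of 14 higher transporters (Slc7a7, Slc5a11, Slc7a9, Slc7a8 and Slc3a1, 35.7%) and in 4 of 13 higher brush border genes (Muc13, Muc3, Ace and Cubn, 30.8%). It stood in 5.6% of tested genes with an entry, in 8.06% of those called higher, in 5.86% of those called lower and in 5.49% of all promoters. Among lists lower in the jejunum, it stood in 0 of the 15 squamous and 0 of the 13 smooth muscle genes, but in 1 of the 3 parietal cell genes (33.3%). TTTATG stood in 3 of 13 brush border genes, in 2 of 11 fat absorption genes, in 0 of 14 transporters, in 2 of the 15 squamous genes and in 7.96% of tested genes. The motif of Hnf1 and TCAAGGTCA, a motif of Esrr receptors, stood in 0.0563% and 0.263% of tested genes and in none of these lists.

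The jejunum arrays differed among themselves in genes graded along the small intestine. Fabp6, the ileal bile acid binding protein, was at 82.6, 7309 and 9040.5 on jejunum 1, 2 and 3, so jejunum 1 lay with the corpus arrays (60.5 and 71.6) and jejunum 2 and 3 far above. Fgf15, the hormone released by bile acids in the ileum, was at 11.9, 284 and 178, and Slc10a2, the apical bile acid transporter, at 0.5, 40.9 and 61.2, both also lowest on jejunum 1. Jejunum 1 was in turn the highest for Fabp1, Lct, Ace and Dnase1, an intestinal nuclease at 3187, 789.7 and 564. The piece called jejunum by the labels runs from beyond the first 4 cm to 2 cm before the end of the small intestine.

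Of 8 measured bile acid genes 4 were higher and 0 lower without corpus 3 and 3 as labelled, and 2 were higher without jejunum 2, corpus 1 or corpus 2. Slc51a, which exports bile acids to blood, was at 1486, 3251 and 2820.3 against 60.7 and 44.1 (5.53 ± 1.72, adjusted p = 0.0223), and Abcc2, an apical organic anion pump, was at least 10.3-fold higher. Fgf15 was at least 4.83-fold higher (adjusted p = 0.0366). Fabp6 did not pass (4.74 ± 2.11, adjusted p = 0.108), and passed without the 3 libraries (adjusted p = 0.00535). Slc51a did not pass without jejunum 2, corpus 1 or corpus 2 (adjusted p = 0.058 to 0.117), nor did Fgf15 without jejunum 2, jejunum 3, corpus 1 or corpus 2 (adjusted p = 0.114 to 0.172). The Fgf15 difference was at least 10.6-fold without jejunum 1 and at least 2.9-fold without jejunum 2.

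Of 15 measured goblet cell genes, 8 were higher and 1 lower without corpus 3, and 5 and 1 as labelled. Zg16, a lectin of intestinal mucus, was at 10501, 7774 and 10071 in the jejunum and 105 and 311 on corpus 1 and 2 (5.69 ± 0.32, adjusted p = 1.35e-10). Fcgbp, a protein of the mucus gel, gave 6.02 ± 0.30, and Tff3 5.39 ± 0.43. Retnlb, a resistin-like goblet protein, was at 1459, 2265 and 1856 against 7.0 and 281, with 9364 on corpus 3. In these 4 genes corpus 2 lay above corpus 1, and corpus 3 lay near the jejunum or above it. Clca1 gave 6.0 by its bright probe set and 0.29 by another that lay near the floor, so its probe sets disagree. The Zg16 difference was 30.1-fold without corpus 1 and 88.9-fold without corpus 2. The Tff3 difference was 21.7-fold without corpus 1 and 81.5-fold without corpus 2.

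Of 10 measured Paneth cell genes 8 were higher and 0 lower in both comparisons, with a median of 5.833 without corpus 3, and 4 were higher without corpus 1 or without corpus 2. Pla2g2a, a bactericidal phospholipase, was at 12264, 7463 and 7451 in the jejunum and at the floor on corpus 1 and 2 (13.9 and 7.7), at least 415-fold higher (adjusted p = 2.17e-08), the largest positive difference among probe sets that name 1 gene. Corpus 3 had 1792. Mmp7, which cuts prodefensins into active form, was at 2442, 1371 and 851 and at or below the floor on all corpus arrays, at least 66.9-fold higher. Probe sets named Defa23 and Defa35, for Paneth cell defensins, gave 160- and 128-fold, and may bind other defensins. Mmp7 did not pass without corpus 1 or corpus 2 (adjusted p = 0.076 to 0.0803), nor did Defa23 without corpus 1 (adjusted p = 0.052), nor did Defa35 without corpus 2 (adjusted p = 0.0639). The Defa35 difference was 245-fold without corpus 1 and 67.2-fold without corpus 2.

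Reg3a, Reg3b and Reg3g, lectins that bind bacterial walls, were high in these mice without microbes. Reg3g was at 589.7, 1546 and 1808 and at the floor on corpus 1 and 2 (3.5 and 9.6), at least 55.7-fold higher (adjusted p = 0.0383). Reg3b was at 4669, 5734 and 6054 against 183 and 193, and Reg3a at 3608, 3156 and 2302 against 22.6 and 43.3 (29- and 95-fold). Lyz2, a lysozyme of macrophages also named in this list, was higher by 7.74-fold. Itln1, intelectin, was at 10409, 6462 and 6226 against 118 and 139 (58.3-fold, adjusted p = 0.03). Guca2b, uroguanylin, which drives chloride and fluid secretion, was at 6362, 5263 and 3814 against 14.5 and 24.7, at least 220-fold (adjusted p = 2.2e-07). Reg3g did not pass with any 1 of the 5 arrays left out (adjusted p = 0.0546 to 0.148), nor did Reg3b without corpus 1 or corpus 2 (adjusted p = 0.08 to 0.0885), nor did Itln1 without jejunum 1, jejunum 2, corpus 1 or corpus 2 (adjusted p = 0.0579 to 0.135).

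Of 16 measured claudin and adhesion genes 7 were higher and 2 lower without corpus 3 (5 and 2 as labelled), and 4 were higher with only the compared arrays in the fit. Cldn7, a claudin of lateral membranes, was at 4244, 4698 and 3324 against 5.0 and 126 (6.29 ± 0.46, adjusted p = 5.96e-09). Cldn3 gave 5.13 ± 0.26 and Epcam, which stabilises them, 3.36 ± 0.23. The lower ones were Cldn1, a claudin of skin and squamous lining, at or below the floor on all jejunum arrays, and Tjp1, a junction scaffold (-1.23 ± 0.28). The Cldn7 difference was 32-fold without corpus 1 and at least 191-fold without corpus 2. The Cldn3 difference was 22.3-fold without corpus 1 and 54.8-fold without corpus 2.

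**Figure D4:**
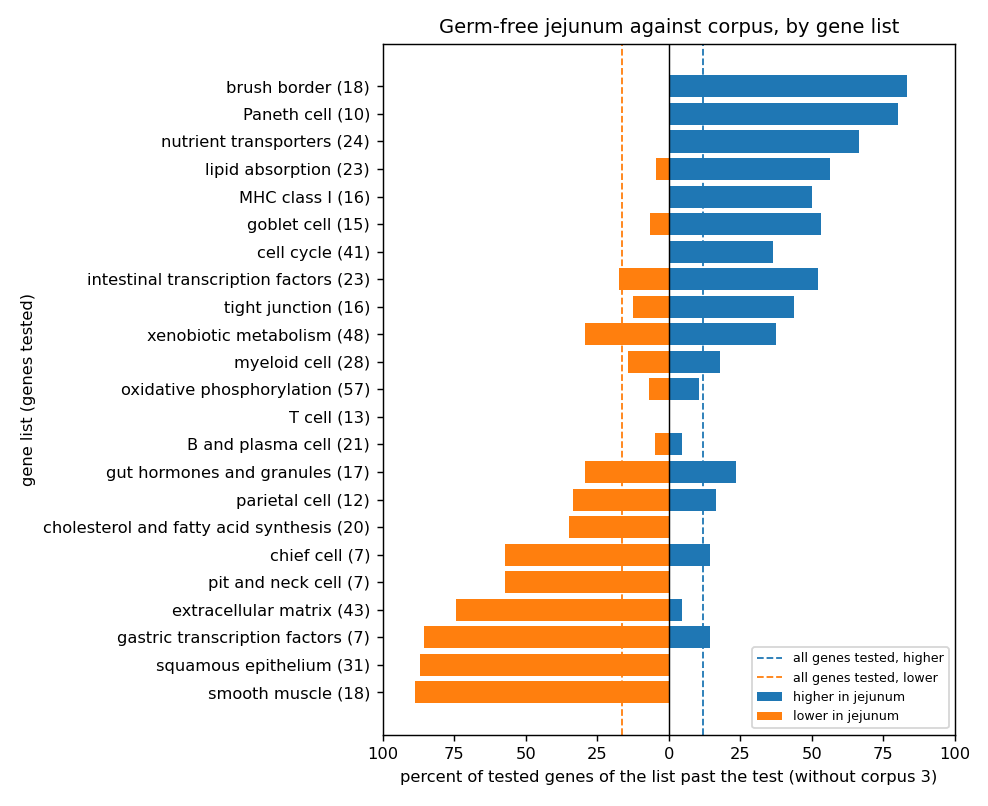
For each gene list (number of genes tested in brackets), the percent of tested genes that passed the test without corpus 3, to the right for higher in the jejunum and to the left for lower, with the shares over all 6650 genes (11.9% and 16.4%) as dashed lines. Brush border, Paneth cell and transporter genes extend to the right, and smooth muscle, squamous, gastric factor and matrix genes to the left.

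Xenobiotic metabolism changed in both directions. Of 48 measured genes 18 were higher and 14 lower without corpus 3, beside 11.9% and 16.4% of all genes, with a median of 0.177. As labelled these counts were 14 and 10, and without corpus 1 they were 11 and 9. Cyp3a11, a steroid and drug hydroxylase, was at 2467, 975 and 1474 in the jejunum and at the floor on all 3 corpus arrays, at least 71.9-fold higher (adjusted p = 0.00509). Cyp2d26 gave at least 78.8-fold, and Maoa, an amine oxidase, was at 5709, 4242 and 3506 against 242 and 490.5. Abcg2 and Abcb1a, efflux pumps, were higher by 8.13-fold and at least 11.7-fold. On the corpus side stood Aldh3a1, an aldehyde dehydrogenase of cornea and stomach (-4.82 ± 0.43), the glutathione transferase Gsta4 (2081 and 2566 against 108, 122 and 93.8, -4.43 ± 0.50), Adh7, the gastric alcohol dehydrogenase (-2.65 ± 0.50), and Ephx1, an epoxide hydrolase (-4.20 ± 0.67). The Ephx1 difference was at least 11.5-fold without corpus 1 and at least 29.1-fold without corpus 2.

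Few mitochondrial genes passed. Of 57 measured genes of oxidative phosphorylation and the citrate cycle 6 were higher and 4 lower without corpus 3, beside 11.9% and 16.4% of all genes, with a median of 0.005. With only the compared arrays in the fit 1 was higher and 0 lower, and without corpus 1 they were 3 and 7. Cs, citrate synthase, was among the higher at 2548, 2321 and 1955 against 1112 and 1249 (0.94 ± 0.14, adjusted p = 5.29e-05). Of 25 fatty acid oxidation genes 4 were higher and 4 lower, near the shares over all genes, and 5 and 1 as labelled. Over the alternatives without corpus 3 these counts ran from 2 to 7 and from 1 to 5, with 1 lower without corpus 1 and 2 higher without corpus 2. Hadh, which oxidises short acyl chains, was higher by 2.41-fold and Acot1, a cytosolic acyl-CoA thioesterase, was lower by 12.3-fold (74.5, 32 and 58.4 against 919 and 439).

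Cholesterol and fatty acid synthesis genes were lower in 7 of 20 and higher in 0 without corpus 3, and in 4 and 0 as labelled, but lower in 1 without corpus 1, 4 without jejunum 1 and 3 with only the compared arrays in the fit. Elovl6, which elongates fatty acids, was at 161, 189 and 140.1 against 1744 and 784 (-2.85 ± 0.37, adjusted p = 1.25e-05). Fdps, of isoprenoid synthesis, and Acly, which makes cytosolic acetyl-CoA, were lower by 2.63- and 2.71-fold. Hmgcs1, Cyp51 and Fdft1 of the same route did not pass. Fdps did not pass without corpus 1 (adjusted p = 0.0788), nor did Acly without corpus 1 (adjusted p = 0.135).

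Smooth muscle and matrix genes were lower in the jejunum. Of 18 measured smooth muscle genes 16 were lower in the jejunum and 0 higher without corpus 3, and 15 and 0 as labelled, with a median of -1.559. Myh11, smooth muscle myosin, was at 882, 1441 and 2018 in the jejunum, 6104 and 3851 on corpus 1 and 2 and 3011 on corpus 3 (-1.82 ± 0.38, adjusted p = 0.00139). Acta2 and Actg2, smooth muscle actins, were lower by 3.09- and 3.04-fold, Tagln by 4.68-fold and Cnn1, calponin, by 5.07-fold. Skeletal muscle genes summed to 8591 on corpus 1, 1564 on corpus 2 and 1397 to 2206 in the jejunum, and 2 of 17 were lower, beside 16.4% of all genes. As labelled 0 were lower, and over the alternatives without corpus 3 the count ran from 0 to 8, the 8 being without corpus 2.

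Of 43 measured matrix genes 32 were lower and 2 higher without corpus 3 (33 and 1 as labelled), with a median of -1.234, and 20 were lower without corpus 1. Col1a1, of fibrillar collagen, was at 350.5, 372 and 369 against 2912 and 1931 (-2.71 ± 0.35, adjusted p = 1.11e-05). Col3a1 gave 4.79-fold, Eln, elastin, 5.38-fold, Postn, periostin, 13.7-fold and Ogn, a small proteoglycan, 17-fold. Among basement membrane chains Col4a1 and Col4a2 were lower by 2.38- and 2.28-fold. The higher ones were Fbln1, fibulin, and Col18a1, a basement membrane collagen, at 0.92 ± 0.27 and 1.09 ± 0.31, but dim probe sets of both went the other way (-3.84 for Fbln1, which passed, and -0.75 for Col18a1, which did not). The sum over the matrix list was 11180 to 12540 in the jejunum, 37790 and 27660 on corpus 1 and 2 and 20040 on corpus 3. Fbln1 did not pass without jejunum 1 or corpus 2 (adjusted p = 0.0717 to 0.342), nor did Col18a1 without corpus 2 (adjusted p = 0.443). The Ogn difference was 11.1-fold without jejunum 1 and 28.4-fold without jejunum 3. The Col18a1 difference was 3.46-fold without corpus 1 and 1.31-fold without corpus 2.

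Some cell cycle genes were higher in the jejunum. Of 41 measured, 15 were higher and 0 lower without corpus 3, and 13 and 0 as labelled, with a median of 0.607, and 9 were higher without corpus 2. Mcm3 and Mcm5, of the replication helicase, were at 218, 343 and 312 against 97.5 and 118 and at 459, 564 and 465 against 182 and 167 (1.42 ± 0.27 and 1.5 ± 0.33). Ccna2 and Ccnb2, cyclins of S phase and mitosis, were higher by 2.38- and 2.05-fold, and Lig1, the replication ligase, by 2.48-fold. Of 16 crypt and gland stem cell genes 0 were higher and 4 lower, 2 as labelled, and 2 without jejunum 1, without corpus 2, with only the compared arrays in the fit or with array medians equalised. The 4 included Hopx at 709.5, 595 and 609.9 against 3217 and 2259 (-2.08 ± 0.25) and Bmi1 (-1.45 ± 0.31).

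Among immune genes, those of antigen presentation by MHC class I were higher in part: 8 of 16 measured were higher and 0 lower without corpus 3 (7 and 0 as labelled, and 5 without corpus 1), with a median of 1.198. H2-Q1, a nonclassical class I gene, was at 1549.5, 1061 and 1052 against 21.2 and 55 (5.14 ± 0.37, adjusted p = 4.58e-09), and may share probes with its relatives. Tap2, which pumps peptides into the endoplasmic reticulum, and Psmb10, of the immunoproteasome, were higher by 4.26- and 4.8-fold. Ccl25, a chemokine of small intestinal epithelium that draws lymphocytes, was at 2751, 2165 and 2819 and at the floor on corpus 1 and 2, at least 121-fold higher (adjusted p = 0.00464). Pigr, which carries IgA into the lumen, was at 7691, 5231 and 7288 against 358 and 632 (3.80 ± 0.39). Tap2 did not pass without corpus 1 (adjusted p = 0.0814). The H2-Q1 difference was 21.8-fold without corpus 1 and at least 56.6-fold without corpus 2. The Tap2 difference was 2.79-fold without corpus 1 and 6.5-fold without corpus 2.

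Lists of immune cells held few calls or were divided. Of 28 measured myeloid genes 5 were higher and 4 lower without corpus 3, beside 11.9% and 16.4% of all genes, and 3 and 1 without corpus 1. Of 13 T cell genes 0 passed in either direction by limma, with 0 at an unadjusted p under 0.05, both as labelled and without corpus 3. Of 21 B and plasma cell genes 1 was higher and 1 lower. Igha, the IgA heavy chain, was at 2141, 2306 and 4019.9 against 136 and 1079 and did not pass (2.82 ± 1.33, adjusted p = 0.131). In 10 mast cell genes 3 were lower, 1 without corpus 1: Cma1, a chymase, at 26.3, 21.3 and 33.6 against 323 and 140.2, Cpa3, a carboxypeptidase, and Hdc. Ltf, lactoferrin of granulocytes and glands, was at 636 and 459 on corpus 1 and 2 and at the floor in the jejunum, at least 25.5-fold lower (adjusted p = 5.8e-09).

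The same regions were then set against each other in conventional mice, the comparison of microbial states being the subject of the study. As labelled, 1694 probe sets passed there (18.8%, with 7.85% higher and 10.9% lower), and without the 3 libraries 2333 passed (25.8%, with 11.5% higher and 14.3% lower), beside 2633 in germ-free mice (29.1%, with 12.4% and 16.7%). In conventional mice 29 of 31 squamous genes were lower, 16 of 18 brush border genes higher, 8 of 10 Paneth cell genes higher and 15 of 18 smooth muscle genes lower. In germ-free mice, in the same fit without the 3 libraries, these counts were 28, 16, 9 and 16. Cell cycle genes were higher in 22 of 41, T cell genes in 3 of 13 and MHC class II genes in 5 of 13 in conventional mice, against 18, 0 and 2 in germ-free mice in that fit. The difference of those counts was not tested.

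The test of the difference between states passed 1 probe set as labelled (0.0111%, 881 at an unadjusted p under 0.05) and 4 without the 3 libraries (0.0443%, 754 unadjusted), of which 3 lay below 0 (0.0332%). Slc5a11, a sodium-linked transporter of myo-inositol, was at 202, 97.3 and 185 on the germ-free jejunum arrays, 18.4 and 29.3 on germ-free corpus 1 and 2 and 24.2 on corpus 3. On the conventional arrays it was at 28.4, 21.7 and 19.4 in the jejunum and at 20.8, 26.0 and 27.5 in the corpus. The germ-free jejunum arrays thus lay above the other 9, the highest of which was 29.3. The difference between states was 2.71 ± 0.41 as labelled (adjusted p = 0.0204) and 2.62 ± 0.46 without the 3 libraries (adjusted p = 0.0475). The call was lost with a floor at the 10th percentile (adjusted p = 0.313), with a pseudocount (0.149), with only the 12 arrays in the fit (0.323), and without germ-free jejunum 1 (0.14), conventional jejunum 3 (0.117), conventional corpus 2 (0.0999) or conventional corpus 3 (0.0563). Over all settings the difference ran from 1.58 to 3.04.

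The other 3 passed without the 3 libraries only. Saa2, an acute-phase serum amyloid, was at 508.2 and 404.5 on conventional jejunum 1 and 2, at 49.8, 16.6 and 24.1 on the germ-free jejunum arrays, and at 26.3 and 242 on germ-free corpus 1 and 2, where the arrays differed. Its difference between states was -5.82 ± 0.79 (adjusted p = 0.00561), while another Saa2 probe set gave -0.18, and these probe sets can bind other family members. Zg16 was higher in the jejunum in both states, by 5.69 in germ-free and 8.56 in conventional mice on the log2 scale. The conventional corpus was at 5.4 to 26.6 and germ-free corpus 1 and 2 at 105 and 311, and the difference of -2.87 ± 0.46 (adjusted p = 0.0178) lay on the corpus side. Of the conventional corpus arrays, 2 lay below the floor. Other intestinal markers were higher beside it: Tff3 was at 125.2 and 470.3 on germ-free corpus 1 and 2 and at 29.7 to 74 in the conventional corpus. On corpus 2, but not corpus 1, Car1, at 1433, and Cdx1, at 62.2, also lay above the conventional corpus, at 9.2 to 12.6 and 6.6 to 22.6. Their part in the difference was not tested.

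Nfkbiz, an inhibitor-like regulator of NF-kB induced by microbial products, had opposite regional differences. It was at 98.2, 84.5 and 166 in the germ-free jejunum against 242 and 241 in the corpus (-1.12, adjusted p = 0.0146), and at 426.7 and 426.4 on conventional jejunum 1 and 2 against 192.7 to 237.1 in the conventional corpus (1.01, adjusted p = 0.0038). The difference between states was -2.12 ± 0.34 (adjusted p = 0.0178), with -0.55 by a dimmer probe set. Conventional jejunum 3 was at 249.3, and the germ-free and conventional jejunum arrays did not overlap. In the fit without corpus 3, the germ-free Nfkbiz difference did not pass without jejunum 1, jejunum 2, corpus 1 or corpus 2 (adjusted p = 0.0504 to 0.0809).

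**Figure D5:**
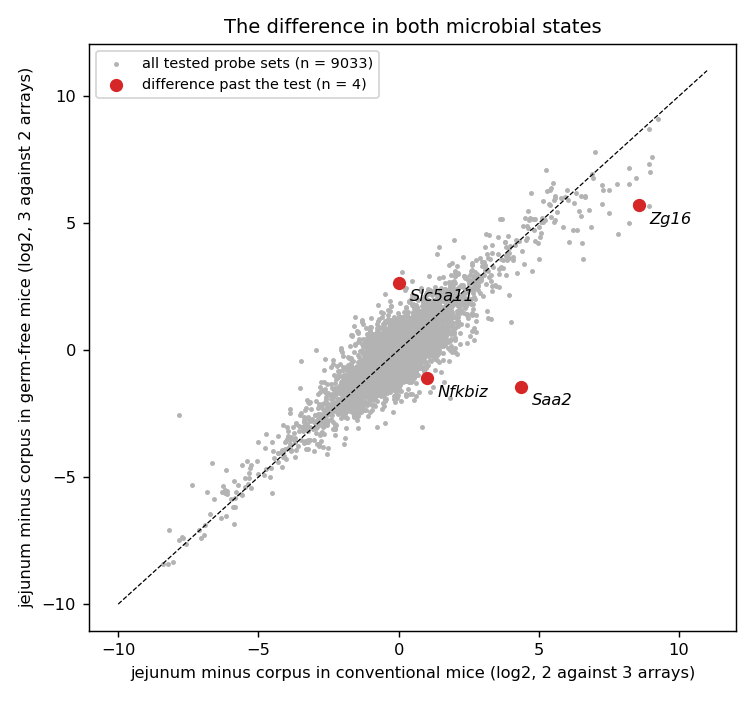
Each point is a tested probe set, with its jejunum minus corpus difference (log2) in conventional mice on the x axis (2 against 3 arrays) and in germ-free mice on the y axis (3 against 2 arrays), without the 3 libraries; the dashed line marks equal differences. The 4 probe sets past the test of the difference lie off the line: Slc5a11 near 0 in conventional mice, Nfkbiz with opposite signs, and Zg16 and Saa2 below the line.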

How the data were processed

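The authors deposited 1 table of linear signal intensity for 24 one-colour Affymetrix MG_U74Av2 arrays, with 12488 probe sets, 66 of them controls that were left out. On every array the mean of the middle 96% of deposited intensities was 200.1 to 200.14, and the software that made them is not given in the sources used here. Intensities were floored at 21.2 (the 25th percentile), and log2 was taken. A probe set was tested if 3 or more arrays exceeded 51.5, the 40th percentile, which left 9033, of which 8101 name 1 gene. GEO's platform annotation names 1 gene for 10855 probe sets, several for 396 and none for 1237, and 10839 of the first matched the reference by Entrez ID. Groups were compared with limma 3.58.1 (R 4.3.3, statmod 1.5.0), with 8 group means, 1 estimate of spread from all 24 arrays with an intensity trend, and Benjamini-Hochberg adjustment over all 9033, checked on simulated data. The simulated arrays had independent noise and no library against its label, so that check does not cover such libraries. Each group has 3 arrays, which limits the precision.

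Where any array of the lower group lay at or below the floor, a fold is given as "at least", and log2 differences of such genes depend on the floor. Folds come from fitted log2 differences. The rule for named genes took the 15 largest differences per direction among those past the threshold in each fit, the 12 of lowest p for the difference between microbial states, up to 8 of lowest p in each of 41 lists, and markers. Other members of lists are named as examples or as those that did not pass, and some of these were chosen after their values were seen, as were genes named for disagreeing probe sets or for variation among jejunum arrays. The members and lists were chosen with earlier results of these data known. Alternatives were quantile normalization, equalised array medians, other floors and filters, a pseudocount of 16, array weights, fits with fewer arrays, a replicate block and leaving out each array. Promoters were read from RefSeq sequences (GRCm38.p6). Probe sets of defensin, Reg3, Sprr2, Saa and immunoglobulin genes may bind relatives.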

Additional observations from a re-analysis of the deposited data

Results flagged for a closer look

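Each result here is a regional difference, jejunum minus corpus on the log2 scale, that differed between germ-free and conventional mice by limma's test of that difference. With all 24 arrays as labelled, Slc5a11, the myo-inositol transporter, differed between the states by 2.712 (adjusted p = 0.0204), being higher on 3 of 3 germ-free jejunum arrays than on any conventional one. Without the 3 libraries that went against their labels, its difference was 2.622 (adjusted p = 0.0475). In the same fit Saa2, the serum amyloid, gave -5.818 (adjusted p = 0.00561), Zg16, the mucus lectin, -2.867 (adjusted p = 0.0178) and Nfkbiz, the NF-kB regulator, -2.125 (adjusted p = 0.0178). The conventional jejunum had 2 arrays and the germ-free corpus 2 arrays in that fit. As labelled, with 3 arrays a group, these 3 did not pass, with -8.90 and adjusted p = 0.156 for Saa2, -4.66 and 0.33 for Zg16, and -1.63 and 0.33 for Nfkbiz.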

How the results depend on the processing

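No difference that passed the test among the genes followed through the alternatives changed sign in any of them. Those genes were mostly named for large differences or low p in the same data, so a change of sign was unlikely beforehand. As labelled, 1967 probe sets passed; with only the 6 compared arrays in the fit 422 passed, with only the 12 corpus and jejunum arrays 1223, and leaving out 1 array gave 1101 to 2379, the highest without corpus 3. Without corpus 3, 2379 passed, 1514 with only the compared arrays in the fit, and leaving out 1 more array gave 1473 to 2494. The difference between states passed for 1 probe set, Slc5a11, as labelled. It passed for 0 with the floor at the 10th percentile (874 at an unadjusted p under 0.05), with a pseudocount (871), with the filter at the 60th percentile (714; Slc5a11 was not tested there) and with only the groups compared (625). It passed for 5 with the floor at the 40th percentile, 6 with no filter, 39 with array weights, 4 without the 3 libraries and 76 without corpus 3 and jejunum 3, and leaving out 1 array gave 0 to 69. The count was 0 without germ-free jejunum 1, conventional jejunum 3 or conventional corpus 2, 2 without conventional jejunum 2, 3 without germ-free corpus 3, 29 without germ-free corpus 1 and 69 without germ-free jejunum 3; the cause was not tested. Array weights did not converge fully. Of 209 named probe sets called as labelled, 55 passed in every setting, and of 262 called without corpus 3, 160 did. Samples with the same replicate number correlated at 0.09, 0.088 and 0.16 in their deviations, and every sample correlated best with its own number. Corpus 3, which is close to descending colon 3, entered these values, so they cannot decide whether arrays share a mouse. The numbers were not taken as pairs in the main fits. With the replicate block, 2191 passed as labelled, 2534 without corpus 3 and 1 for the difference (2282, 2603 and 1 as a random block). Signals near the floor of 21.2 carry no order, which limits genes dim in both organs.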

Other observations

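Genes of the urea cycle and citrulline synthesis, looked at after their values were seen, were divided between the organs. Cps1, carbamoyl phosphate synthetase, was at 4891, 3214 and 5225 on jejunum 1, 2 and 3 and at 68.6 and 75.3 on corpus 1 and 2, with 129 on corpus 3 (5.92 ± 1.17, adjusted p = 0.000881). Otc, which makes citrulline from its product, was at 587, 413 and 918 and at the floor on corpus 1 and 2 (7.2 and 15.3), at least 28.6-fold higher (adjusted p = 0.000716). Arg2, the mitochondrial arginase, was at 3505, 2099 and 1738 against 22.9 and 33.5 (6.4 ± 1.22), and Slc25a15, the ornithine carrier, was higher by 14.2-fold. The next enzyme, Ass1, argininosuccinate synthase, was lower in the jejunum (-0.77 ± 0.28, adjusted p = 0.0497), as was Arg1, the cytosolic arginase (21.2, 4.5 and 26 against 136 and 114, -2.45 ± 0.30). Alb, albumin of liver, was at 35.8, 19.2 and 64.6 in the jejunum and at 45.8 and 38.3 on corpus 1 and 2. Ass1 did not pass without jejunum 1, jejunum 2, corpus 1 or corpus 2 (adjusted p = 0.12 to 0.22).

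Adipose and lipid storage genes went in both directions, with 5 of 18 measured higher in the jejunum and 6 lower without corpus 3, beside 11.9% and 16.4% of all genes. Lpl, lipoprotein lipase, was at 30.5, 50.5 and 90.6 against 559 and 966 (-3.82 ± 0.53, adjusted p = 2.25e-05), and Cidea, a lipid droplet protein, and Pparg, the adipocyte receptor, were lower with -2.74 ± 0.46 and -1.70 ± 0.55. Lipe, hormone-sensitive lipase, Gpd1, a glycerol phosphate dehydrogenase, and Aqp7, a glycerol channel, were higher by 4.08-, 3.93- and 3.95-fold. Without corpus 2, 0 were higher, and without corpus 1, 3 were higher and 3 lower. Hmox1, haem oxygenase, was lower in the jejunum (-2.03 ± 0.24) at 310.5, 206 and 289 against 1386 and 840.2. Among interferon-induced genes, Irf7, a factor that drives them, was higher (2.38 ± 0.46, and 0.56 by a dimmer probe set that did not pass) and Gbp2, a guanylate binding protein, lower (-1.82 ± 0.46). Of 19 measured, 4 were higher and 3 lower, beside 11.9% and 16.4% of all genes. S100a9, of neutrophils and squamous epithelium, was lower with -1.14 ± 0.34. Pparg did not pass without jejunum 3 or corpus 2 (adjusted p = 0.113 to 0.315), nor did Lipe without corpus 2 (adjusted p = 0.084), nor did Gpd1 without jejunum 1 or corpus 2 (adjusted p = 0.0553 to 0.174), nor did Aqp7 without jejunum 2, corpus 1 or corpus 2 (adjusted p = 0.0613 to 0.103), nor did S100a9 without corpus 1 (adjusted p = 0.427). The Pparg difference was at least 4.99-fold without corpus 1 and at least 2.13-fold without corpus 2. The Irf7 difference was 2.64-fold without corpus 1 and at least 10.3-fold without corpus 2. The S100a9 difference was at least 1.36-fold without corpus 1 and at least 3.58-fold without corpus 2.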
